A study of Rattus norvegicus with 10 samples.

Results

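The 6 genes of myelin and Schwann cells followed here are Mbp, Pmp22, Mal, Cldn19, Cnp and S100b, measured array by array in the rat mammary gland beside the muscle signal of each array. They were found as the probe sets whose only gene symbol in the platform annotation is one of these 6, which gave 9 probe sets, out of 10411 genes that the annotation names in this way. Gene expression had been measured on 10 1-colour arrays, 1 per sample. The tissue was the whole mammary gland, taken from female SD rats on postnatal day 21. Of these, 5 arrays came from rats exposed to soy protein isolate as the protein of the purified AIN-93G diet, and 5 from rats exposed to casein in the same diet, in both cases from gestation day 4 until weaning. The labels speak of RNA pools with several cRNA targets made from each, so an array need not be 1 animal, and the errors measure the spread between arrays, which may be partly technical. Values are log2 of the MAS5 signal, a summary of the probes of 1 probe set that is not comparable between probe sets. In a whole gland, more cells of a type and more RNA per cell cannot be told apart.

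Schwann cells are the glia of peripheral nerve and wrap axons in myelin, a compacted stack of their own membrane. Myelin basic protein holds the cytoplasmic faces of that membrane together, and small proteins that span it several times, such as PMP22 and MAL, lie within it. Claudin 19 seals the membrane loops of the sheath, and the phosphodiesterase CNP lies in the less compacted parts. Nerves reach the mammary gland through skin, fat pad and underlying muscle, so a dissected gland can carry some nerve tissue. Several of these genes are not private to glia: MAL is also known from T cells and epithelium, PMP22 from fibroblasts and endothelium, and S100B, a calcium-binding protein, from adipocytes.

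The 250 bases before the annotated start of Mal, Cldn19 and Pmp22, which were highest in the array of soy 149, and of Cnp, which was not, are shown first (RefSeq, GRCr8). Capitals mark the letters ACAAAG or ACAATG, which SOX proteins can bind, and GCGNGGG, which EGR proteins can bind, searched on both strands; none of the matches overlap.
Mal, chr3:135341424-135341673, minus strand: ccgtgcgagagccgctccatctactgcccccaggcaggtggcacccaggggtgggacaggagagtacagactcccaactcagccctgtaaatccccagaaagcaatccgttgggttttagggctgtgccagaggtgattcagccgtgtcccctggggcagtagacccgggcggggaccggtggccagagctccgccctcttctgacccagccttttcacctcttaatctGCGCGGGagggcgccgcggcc
Cldn19, chr5:138148325-138148574, plus strand: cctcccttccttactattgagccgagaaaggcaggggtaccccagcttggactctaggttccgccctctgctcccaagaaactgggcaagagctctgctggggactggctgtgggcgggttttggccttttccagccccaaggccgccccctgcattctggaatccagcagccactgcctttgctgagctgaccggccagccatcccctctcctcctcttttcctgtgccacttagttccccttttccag
Pmp22, chr10:48294682-48294931, plus strand: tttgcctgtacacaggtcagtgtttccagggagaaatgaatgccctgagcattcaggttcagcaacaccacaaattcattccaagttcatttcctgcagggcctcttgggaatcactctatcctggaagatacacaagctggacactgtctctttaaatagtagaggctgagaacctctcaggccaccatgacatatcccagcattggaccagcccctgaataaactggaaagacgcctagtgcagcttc
Cnp, chr10:86011254-86011503, plus strand: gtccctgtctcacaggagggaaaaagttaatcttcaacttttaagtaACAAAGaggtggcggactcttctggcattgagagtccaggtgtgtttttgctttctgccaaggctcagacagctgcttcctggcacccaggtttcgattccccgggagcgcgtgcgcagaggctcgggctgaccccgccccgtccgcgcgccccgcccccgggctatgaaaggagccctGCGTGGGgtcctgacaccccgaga
Mal and Cnp each held 1 GCGNGGG match, starting 21 and 24 bases before the annotated start, and Cnp also held 1 ACAAAG match at 203 bases. Among 33469 windows of the same length, 18.1% held GCGNGGG, 16.3% ACAAAG and 11.1% ACAATG. The Cldn19 and Pmp22 windows held none of these letters, nor did that of S100b. Of the 2 Mbp windows, which are not printed, 1 held a GCGNGGG match at 50 bases and the other 1 ACAAAG and 2 ACAATG matches.

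The members were chosen by the soy minus casein differences of these same arrays in earlier results, so their diet differences are a description and carry no test. The 6 members and their 9 probe sets passed the filter on low signal, a mean log2 signal of 7.47 over the 10 arrays, but Cldn19 did so only through its soy arrays. Taking the brightest probe set of each gene, all 6 differences were positive in soy minus casein, with a median of 0.42, or 0.22 over the 5 members other than Cldn19, while 47.3% of all 9520 probe sets tested had a positive difference and their median was -0.01. The arrays of the diets overlapped for every one of the 9 probe sets, and over all probe sets 0.441% lay wholly higher and 0.357% wholly lower in soy. In limma, 0 of the 9 had an adjusted p under 0.05, as did 0% of all probe sets. At an unadjusted p under 0.05 there were 433 probe sets in all (4.55%, of which 2.31% higher and 2.24% lower in soy), 2 of them among the 9.

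The structural myelin genes Mbp and Pmp22 were highest on the array of soy 149. Mbp was at 11.12, 12.24, 10.52, 11.41 and 10.89 on the arrays of soy 147, 149, 155, 157 and 159, against 11.21, 10.34, 10.70, 10.20 and 10.69 on those of casein 6, 7, 10, 18 and 20. Soy 149 and soy 157 lay above every casein array, and the other 3 soy arrays lay within the casein range. Mbp averaged 11.23 ± 0.65 in soy and 10.63 ± 0.39 in casein (SD, n = 5 each), a difference of 0.61 ± 0.29 (SE), or 1.52-fold. The second Mbp probe set ran from 8.10 to 9.97 in soy (median 8.42) and from 7.64 to 8.85 in casein (median 8.29), with a difference of 0.36 ± 0.34 (SE). After each profile was centred on its own mean, the probe sets of Mbp differed by a root-mean-square of 0.219 over the 10 arrays, and soy 149 was highest at both.

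Pmp22, whose gene dose matters for peripheral myelin in people and rodents, was less variable. It was at 12.47, 13.19, 12.20, 12.38 and 12.42 in soy 147, 149, 155, 157 and 159, against 12.64, 11.81, 12.34, 12.36 and 12.38 in casein 6, 7, 10, 18 and 20. Without soy 149 the remaining soy arrays lay inside the casein range. The difference was 0.22 ± 0.19 (SE, n = 5 per diet), and 0.14 ± 0.26 (SE) at the second probe set, where soy 155 was the lowest of all arrays at 10.26 and soy 149 the highest at 11.95.

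Mal and Cldn19, which organise and seal the myelin membrane, had the larger differences. Mal was at 8.48, 9.61, 8.09, 8.65 and 7.99 in soy 147, 149, 155, 157 and 159, against 7.97, 7.73, 8.14, 7.45 and 8.0 in casein 6, 7, 10, 18 and 20. Soy 147, 149 and 157 lay above every casein array, and soy 155 and 159 within the casein range. Its mean was 8.56 ± 0.64 in soy and 7.86 ± 0.27 in casein (SD, n = 5 each), a difference of 0.71 ± 0.27 (SE), or 1.63-fold. Cldn19 was at 8.16, 8.86, 7.63, 8.30 and 7.08 in the same soy arrays, against 7.51, 7.35, 7.46, 7.03 and 5.96 in the casein arrays. All soy arrays but soy 159 lay above every casein array, while soy 159 lay among these. Cldn19 averaged 8.0 ± 0.68 in soy and 7.06 ± 0.64 in casein (SD, n = 5 each), a difference of 0.94 ± 0.36 (SE), or 1.92-fold. The probe set lies close to the filter: 1 soy array and 4 casein arrays, all but casein 6, lay under it, as did the casein mean. No signal was set against background, so the size of this difference is uncertain.

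Cnp peaked in another array, while S100b peaked in soy 149 but was lowest in soy 147. Cnp was at 10.13, 10.04, 10.45, 10.35 and 10.04 in soy 147, 149, 155, 157 and 159, against 9.57, 10.25, 10.03, 10.08 and 9.98 in casein 6, 7, 10, 18 and 20. It was highest in soy 155 and lowest in casein 6, and soy 149 was among the lower soy arrays. The second Cnp probe set had the same highest and lowest arrays, and both profiles differed by a root-mean-square of 0.141 after centring. The Cnp differences were 0.22 ± 0.13 and 0.16 ± 0.19 (SE, n = 5 per diet). S100b was at 12.26, 13.15, 12.78, 12.51 and 12.70 in those soy arrays, against 12.35, 12.54, 12.58, 12.83 and 12.67 in the casein arrays, so soy held both the lowest and the highest of the 10. Its difference of 0.08 ± 0.15 (SE, n = 5 per diet) was well within the spread of either diet, and it was -0.036 without soy 149.

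**Figure D1:**
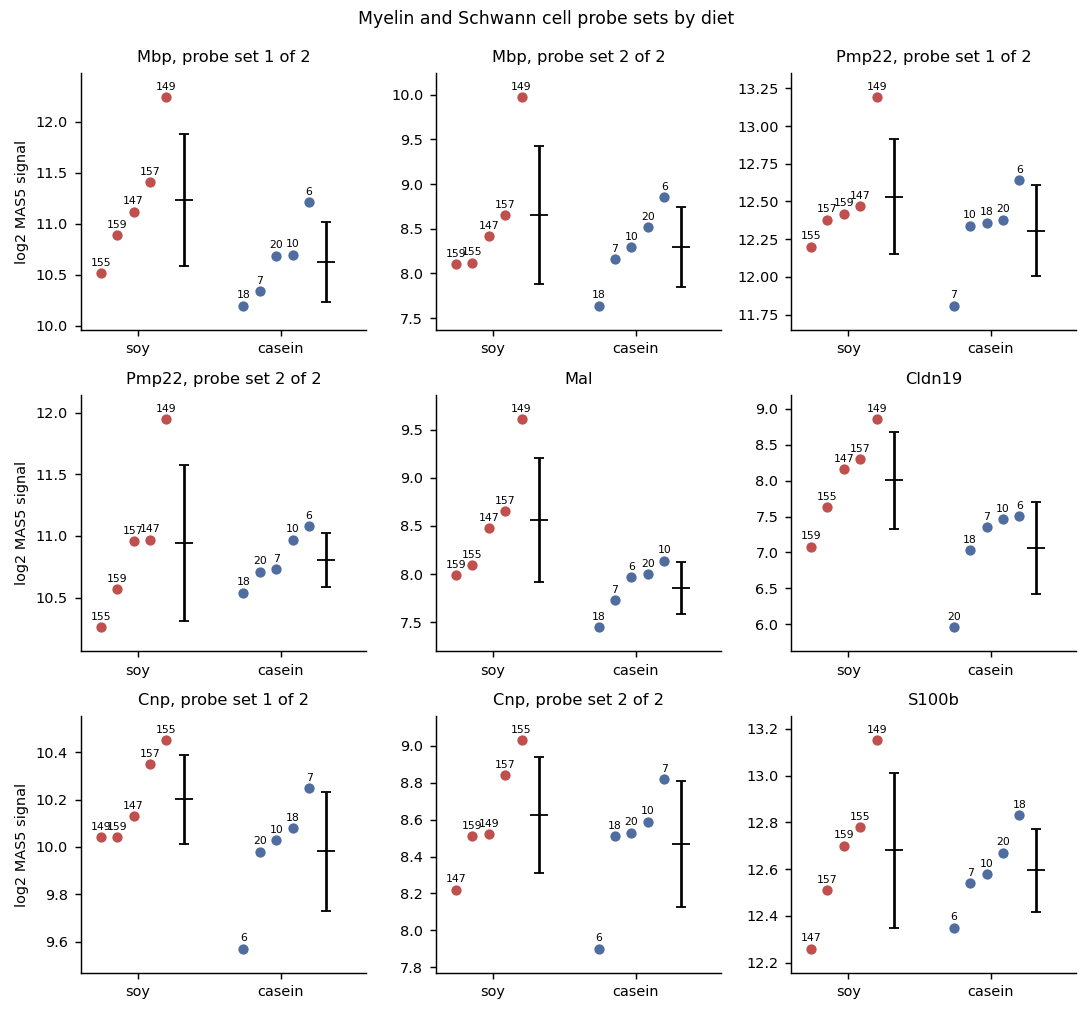
Log2 MAS5 signal (vertical axes, a separate scale for each panel that does not start at 0) of the 9 probe sets in soy and casein arrays. Points are single arrays labelled with their number and bars are the mean and SD of 5 arrays; soy 149 is the highest point in 7 of the 9 panels, and soy 155 in both Cnp panels.

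Much of the Pmp22 and S100b differences, and part of those of Mbp, Mal and Cldn19, rested on array soy 149. Soy 149 was the highest of the 10 arrays for 5 of the 6 members, all but Cnp, against 11.3% of all tested probe sets. The members were chosen by this diet difference, which favours a peak in a soy array, so that share is not a like background. Soy 149 stood above the next array by 0.83 for Mbp, 0.55 for Pmp22, 0.95 for Mal and 0.56 for Cldn19. Without it the differences were 0.356 for Mbp, 0.061 for Pmp22, 0.447 for Mal and 0.729 for Cldn19. Cnp, at 0.262, was little moved, but was at 0.118 without casein 6, and Pmp22 was at 0.101 without casein 7. Cldn19 was at 0.666 without casein 20, lower than without soy 149. The median of the 6 members was 0.309 without soy 149, against 0.42 with all arrays. In limma's array weights, which are low for arrays that fit the diet means poorly over all probe sets, soy 149 and casein 6 had the lowest values of the 10, 0.468 for soy 149 and 0.357 for casein 6, against 0.600 to 2.313 for the others. With these weights the difference was 0.52 for Mbp, 0.2 for Pmp22, 0.488 for Mal, 0.746 for Cldn19, 0.134 for Cnp and 0.018 for S100b.

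The muscle signal varied far more than any member. Myl11, the fast skeletal muscle regulatory myosin light chain, was at 12.96, 13.76, 8.14, 14.39 and 3.15 in soy 147, 149, 155, 157 and 159, against 13.80, 7.47, 3.29, 3.17 and 3.42 in casein 6, 7, 10, 18 and 20. Thus 3 soy arrays and 1 casein array were rich in muscle, and a list of 17 tested muscle genes, whose summed signal ran from 4426 to 189152 in soy and from 5145 to 165810 in casein, was high in the same 4 arrays. The arrays form separate clusters in Myl11, none with 6 arrays, so no correlation was computed. In soy 159, casein 10, casein 18 and casein 20 Myl11 lay far under the filter of 7.47. No signal was set against background, so the lower part of its range is uncertain.

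Set beside Myl11, the members fell apart. Within soy, the muscle-rich arrays 147, 149 and 157 had the 3 highest values of Mbp, Mal and Cldn19. Within casein, the muscle-rich array 6 was highest for Mbp, at 11.21, for Pmp22, at 12.64, and for Cldn19, at 7.51, where casein 10 was at 7.46. For Mal, however, casein 6 was at 7.97, below casein 10 and casein 20. S100b was lowest in soy 147 and next lowest in casein 6, and Cnp was lowest in casein 6. Soy 149 and casein 6 had nearly the same Myl11 signal, a difference of -0.04, yet soy 149 was higher by 1.03 for Mbp, 0.55 for Pmp22, 1.64 for Mal, 1.35 for Cldn19, 0.47 for Cnp and 0.79 for S100b. These are single arrays, and no test was made.

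**Figure D2:**
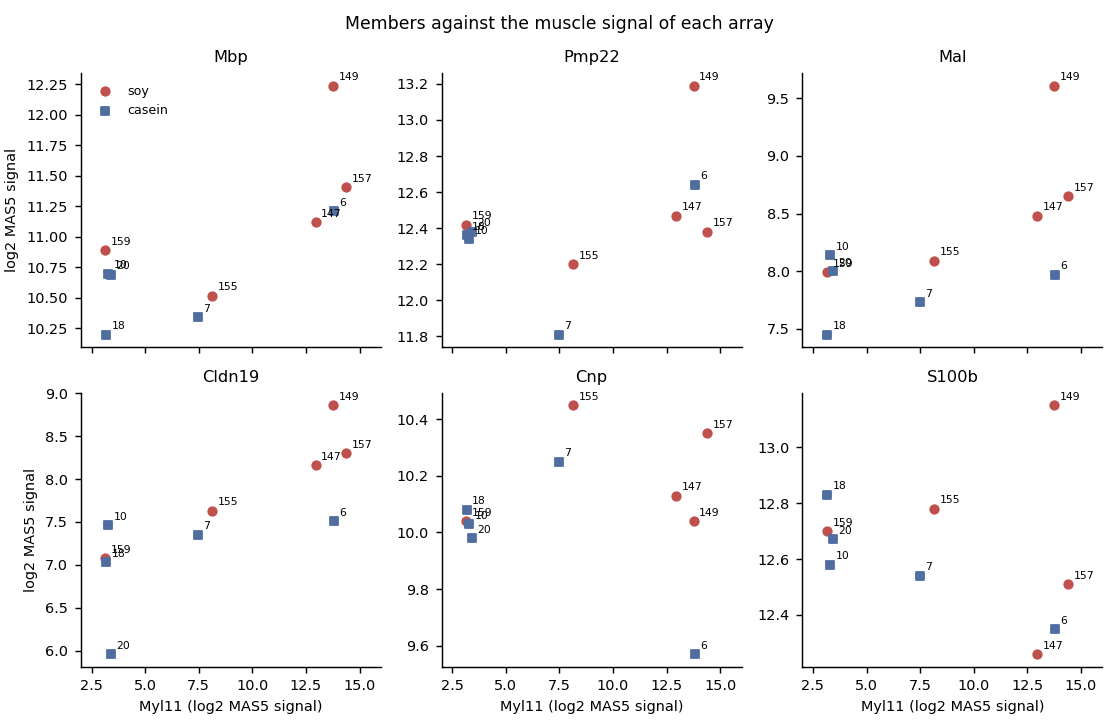
Log2 MAS5 signal of each member (brightest probe set, vertical axes not starting at 0) against that of Myl11 (horizontal axes) in the 10 arrays; circles are soy and squares casein, with array numbers. Soy 149 and casein 6 share a Myl11 signal of about 13.8 but lie apart for every member, by 1.64 for Mal.

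With Myl11 as a covariate in the fit, the differences were 0.297 ± 0.261 for Mbp, 0.476 ± 0.274 for Mal, 0.513 ± 0.305 for Cldn19 and 0.119 ± 0.210 for Pmp22 (SE, 10 arrays), all smaller than without it. Those of Cnp and S100b were larger, at 0.289 and 0.163. Leaving out the 4 muscle-rich arrays, which keeps soy 155 and soy 159 and 4 casein arrays, gave 0.220 ± 0.175 for Mbp, 0.212 ± 0.204 for Mal and 0.400 ± 0.403 for Cldn19 (SE). It gave 0.088 for Pmp22, 0.161 for Cnp and 0.083 for S100b. All 6 were positive. Only 2 soy arrays enter these values.

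**Figure D3:**
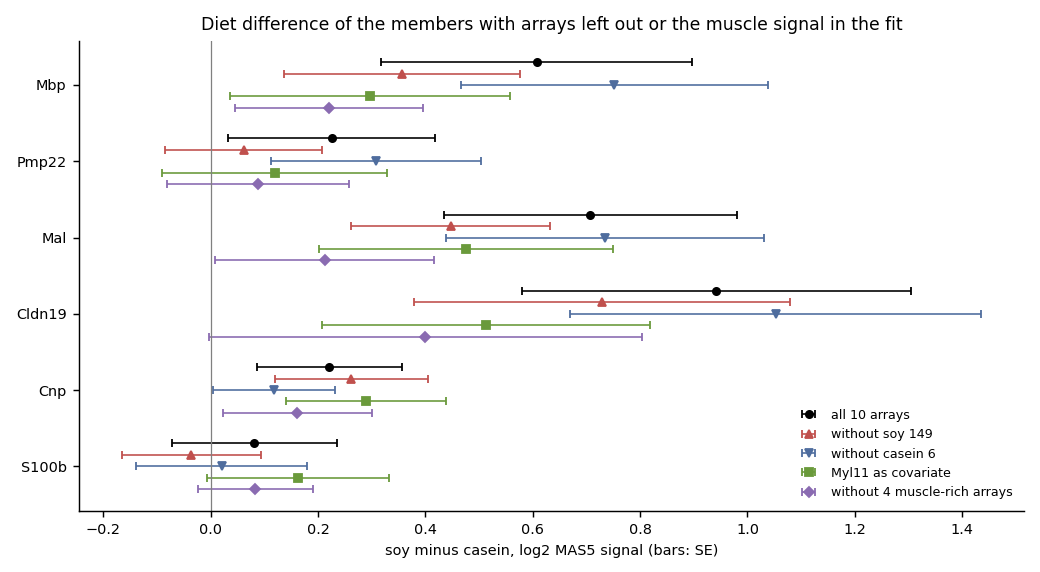
Soy minus casein difference in log2 MAS5 signal (horizontal axis, bars are SE) of the brightest probe set of each member, with all 10 arrays, without soy 149, without casein 6, with Myl11 as covariate and without the 4 muscle-rich arrays. Mal is at 0.71, 0.447, 0.735, 0.476 and 0.212 in these settings, and S100b stays near 0 in all of them.

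Markers of other tissues were read in the same arrays. The lymph node list (12 of 20 genes tested) had mean log2 signals of 6.33 in soy 149 and 6.45 in casein 6, while all other arrays lay between 9.01 and 9.82, and its summed signal ran from 1541 to 15376 in soy and from 1806 to 12289 in casein. Mal, also known as a lymphocyte protein, was highest in soy 149, at 9.61, but at 7.97 in casein 6, the other array of low lymph node signal. The adipocyte list (9 of 12 tested) was highest in soy 149, at 11.63, and lowest in soy 147, at 10.55, the same arrays in which S100b was highest and lowest; its summed signal ran from 32412 to 55014 in soy and from 32640 to 47016 in casein. The fibroblast list (8 of 8 tested) ran from 12.67 to 13.19 in soy and from 12.82 to 13.12 in casein, and was lowest in soy 155 and highest in soy 149. The epithelial list (7 of 14 tested) was low in soy 159, soy 149 and casein 6, at 7.10, 8.09 and 7.07, and ran up to 10.94 in casein 7. Of these lists and the muscle list, no tested gene was at the floor signal of 1 on any array. The part of these tissues in the members' values was not tested.

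**Figure D4:**
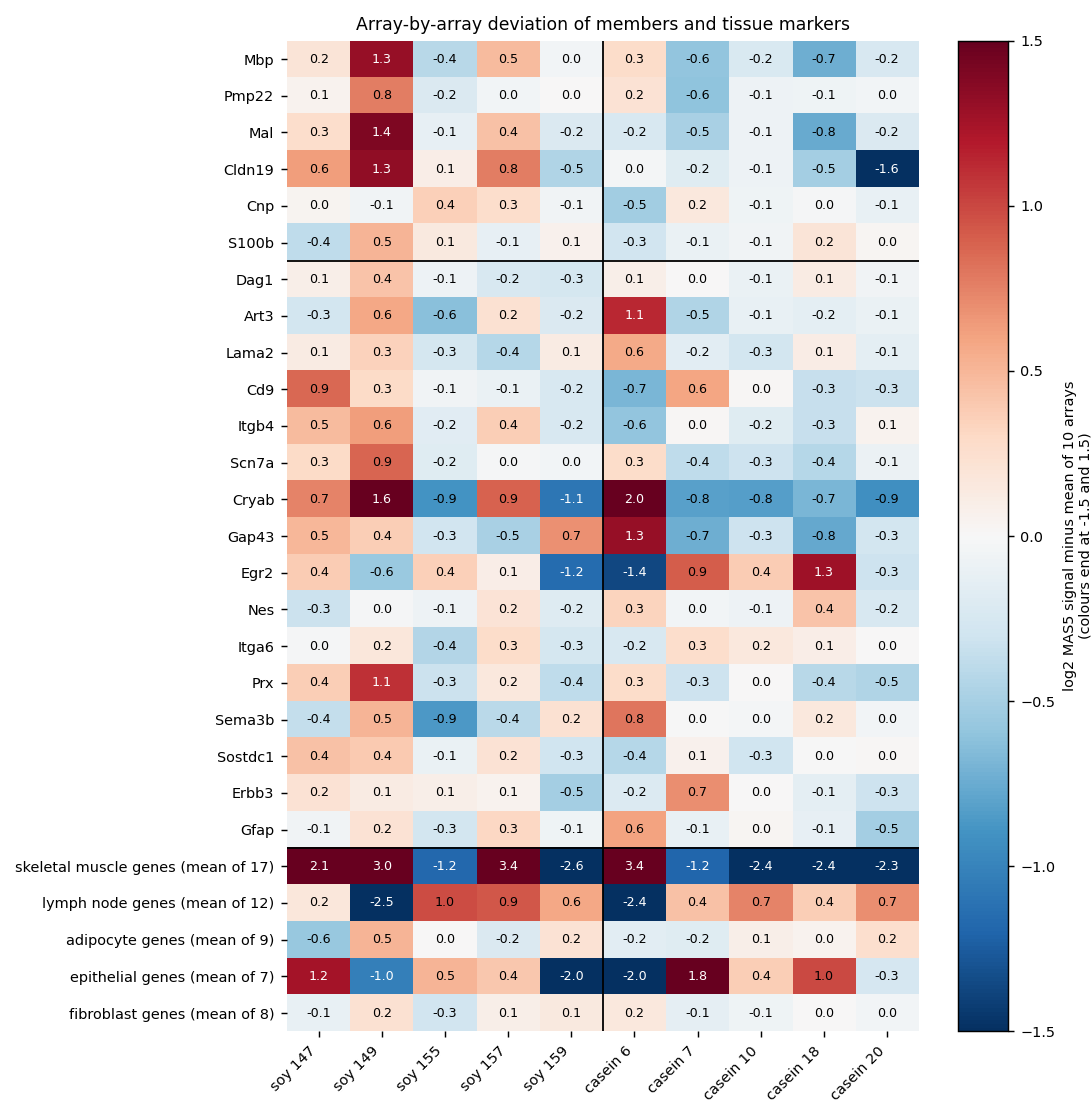
Log2 MAS5 signal minus its mean over the 10 arrays for the 6 members (top), the 16 other tested myelin and Schwann cell genes by falling mean signal (middle) and the mean of 5 tissue marker lists (bottom), with soy arrays left and casein arrays right of the line. Soy 149 is high for all members but Cnp and low for lymph node genes. Casein 6 has muscle and lymph node values near those of soy 149 but is lower for every member, most of all for Mal and Cldn19.

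The other genes of myelin and Schwann cells were spread both ways. Of 42 listed genes, 33 had a probe set naming only them and 16 passed the filter; 8 had a positive and 8 a negative difference, with a median of 0.02, against 47.3% positive and a median of -0.01 over all probe sets. In limma 0 of the 16 passed, 1 of them had an unadjusted p under 0.05, against 4.55% of all probe sets, and none had diets that did not overlap, against 0.441% higher and 0.357% lower, so these counts are near the background. Soy 149 was the highest array for 4 of the 16, Dag1, Itgb4, Scn7a and Prx, and casein 6 for 6 of them, against 11.3% and 13.4% of all tested probe sets. Scn7a is named for its signal and Prx for its likeness to Mbp. Prx, the Schwann cell scaffold periaxin, was at 8.52, 9.25, 7.83, 8.32 and 7.77 in soy 147, 149, 155, 157 and 159, against 8.43, 7.84, 8.16, 7.74 and 7.70 in casein 6, 7, 10, 18 and 20. Like Mbp it was highest in soy 149 and had its highest casein value in casein 6, which the choice by likeness largely fixes. Its difference, on which that choice also bears, was 0.37 ± 0.27 (SE, adjusted p = 0.98 in limma). Scn7a, a sodium channel family member found in Schwann cells, ran from 9.44 to 10.49 in soy (median 9.60) and from 9.19 to 9.89 in casein (median 9.31), again highest in soy 149 and, within casein, in casein 6, with a difference of 0.38 ± 0.20 (SE; adjusted p = 0.98 in limma).

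The remaining genes of that list with the highest signals are shared with other cells and spread both ways. Itgb4, an integrin of Schwann cells and of basal epithelium, had a difference of 0.42 ± 0.19 and the tetraspanin Cd9 of 0.30 ± 0.25 (SE, n = 5 per diet). Dag1, which links cells to laminin in nerve and muscle, had -0.03 ± 0.13, and Lama2, itself a laminin chain, had -0.04 ± 0.18 (SE, n = 5 per diet). The small heat shock protein Cryab, abundant in muscle, had 0.50 ± 0.64 and the ADP-ribosyltransferase family gene Art3 -0.13 ± 0.30 (SE); both were highest in casein 6, at 11.50 and 11.94. The transcription factor Egr2, which drives myelin genes in Schwann cells, had -0.35 ± 0.47 and the intermediate filament gene Nes -0.16 ± 0.15 (SE). None of these passed in limma, where each adjusted p was 0.98 or above.

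Axon and neuromuscular junction genes were mostly below the filter, with 2 of 14 and 1 of 10 tested. Gap43, a protein of growing axons and of some Schwann cells, was highest in casein 6, at 10.42, and at 9.48 in soy 149, the reverse of the order for Mbp. Its difference was 0.31 ± 0.38 and that of the surface antigen Thy1 -0.29 ± 0.19 (SE, n = 5 per diet; adjusted p of 0.99 and 0.98 in limma). Dok7, an activator of the junction kinase MuSK, was at 9.13 in soy 149 and 9.51 in casein 6, with a difference of 0.21 ± 0.27 (SE; adjusted p = 0.99 in limma). For probe sets under the filter no share over all probe sets was computed, so the next counts have no background. Of the 7 junction genes under it, 4 were highest in casein 6 and 0 in soy 149. Of the 11 axon genes under it, 0 were highest in casein 6 and 1 in soy 149. Of the 17 listed myelin and Schwann cell genes under the filter, 3 were highest in soy 149 and none in casein 6. These 3, named with Mog and Sox10 after their values were seen, were Mag, a myelin adhesion molecule, at 7.86, Ugt8, the enzyme of galactolipid synthesis, at 7.53, and the adhesion molecule L1cam; the other 14 peaked in other arrays, and Mog, a protein of central myelin, was lowest in soy 149, at 5.17. Sox10, a transcription factor of Schwann cells and of mammary epithelium, was lowest in soy 159 and casein 6, at 4.59 and 5.57, the arrays that were also lowest for epithelial genes.

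The genes whose array profiles lay closest to the members were found by the root-mean-square difference between centred log2 profiles over the 10 arrays, among probe sets naming 1 gene. For Mbp, where a flat profile would differ by 0.567, the 5 closest were Slc3a1, an amino acid transporter subunit, at 0.190, Mal at 0.210, the second Mbp probe set at 0.219, Prx at 0.241 and the muscle heat shock gene Hspb7 at 0.249. For Mal they were Mbp at 0.210, Prx at 0.268, Bcas1, which is found in myelinating glia, at 0.273, the second Mbp probe set at 0.277 and the growth arrest gene Gadd45g at 0.278. For Cldn19, against 0.757 for a flat profile, they were Prx at 0.450, the autophagy gene Epg5 at 0.479, Mal at 0.490, the peptide transporter gene Slc15a2 at 0.496 and Bcas1 at 0.522. For Pmp22, against 0.328, they were genes of matrix and vessels and GTPase regulators: Fbn1 for fibrillin at 0.146, the water channel Aqp1 at 0.147, Chn1 at 0.148, Stard8 at 0.151 and the endothelial receptor Adgrl4 at 0.163. Like the members they were matched to, these probe sets were highest in soy 149, which the choice by likeness largely fixes. The likeness is a description of 10 arrays, and within each array all probe sets share the same RNA and scaling. Cnp and S100b, with SDs of 0.24 and 0.25 over the arrays, were too even for such a list, and their profiles differed from that of Mbp by 0.654 and 0.564.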

How the data were processed

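The deposited table holds, per the submitters' processing notes, MAS5 intensity values (signal, linear scale) that the authors computed for 15923 probe sets. The MAS5 version is not given in the sources used here, nor are its settings. On each array the signal had a 2% trimmed mean of 500.1, so the deposited scaling was kept. Detection calls were not used here, and the number of arrays limits the precision. The floor was a signal of 1, applied before log2. The 57 control probe sets were left out, and of the other 15866 the platform annotation named 1 gene for 12783, several for 312 and none for 2771; those with several were given no name. The reference gene table (GRCr8) held the identifiers of 12754 of the 12783 and changed 0 symbols. Probe sets with a mean log2 signal at or above the 40th percentile, 7.47, were tested, which left 9520 for 7151 genes. Diets were compared with limma 3.58.1 under R 4.3.3 (moderated with an intensity trend, two-sided tests, Benjamini-Hochberg adjustment over all 9520), soy minus casein. The fit was tested on simulated data. The brightest probe set stood for a gene.

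The members and lists were chosen with earlier results of these data known. Named by rule were the members, Myl11, up to 10 tested genes of the nerve lists by signal, and the 5 closest profiles of each member whose SD over the arrays was at least 0.3. The diets share no replicate number and no batch is labelled. Alternatives were quantile normalization, median centring, no filter or a 60th percentile filter, a pseudocount of 16, no trend, array weights, Myl11 or the actin 3' to 5' ratio as covariate, averaging all probe sets of a gene and leaving out each array. Leaving out the 4 muscle-rich arrays, or casein 6 with soy 149, was added after seeing the data.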

Additional observations from a re-analysis of the deposited data

Results flagged for a closer look

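Within a diet, 9 values stood apart from the other 4 arrays by more of the range than Dixon's limit of 0.71 allows; 60 groups of arrays were looked at, and chance alone flags about 1 in 20. In soy 149, Pmp22 was at 13.19, with the next soy array at 12.47, and the lymph node list was at 6.33, with the next soy array at 9.01. The other flags fell on casein 6. Its lymph node list was at 6.45, with the next casein array at 9.21, and its skeletal muscle list at 12.90, with the next at 8.31. Cryab was at 11.50 there against 8.81, Art3 at 11.94 against 10.71 and Gap43 at 10.42 against 8.84. The axon list, which holds only Gap43 and Thy1 after the filter, was at 10.21 against 9.19, and the junction list, which holds only Dok7, at 9.51 against 8.43.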

How the results depend on the processing

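No paired analysis was possible because the diets share no replicate number. The differences of Mbp, Mal, Cldn19, Cnp and Pmp22 and the median of the 6 members stayed positive under the alternatives that gave a value; the 60th percentile filter removed Mal and Cldn19, and the median of the remaining 4 was 0.223. Over the other alternatives that keep all arrays or leave out several, the median ran from 0.186, without the 4 muscle-rich arrays, to 0.549, with the actin ratio as covariate, where Cldn19 was at 1.464 and S100b at 0.014. With 1 array left out the median ran from 0.309 to 0.547. With 1 array left out the S100b difference ran from -0.036, without soy 149, to 0.187, without soy 147, and it was -0.097 without both soy 149 and casein 6. The median of the other myelin and Schwann genes, 0.02, had no stable sign: of 19 alternatives, 13 kept it positive and 6 reversed it. It was -0.006 with quantile normalization, -0.004 with median centring, -0.149 with Myl11 as covariate and -0.145 without the 4 muscle-rich arrays. It was 0.205 with the actin ratio as covariate and 0.136 with the 60th percentile filter. With 1 array left out it ran from -0.057 to 0.153, and the cause was not tested. With 1 array left out, Mbp ran from 0.356 to 0.786, Mal from 0.447 to 0.850, Cldn19 from 0.666 to 1.174, Cnp from 0.118, without casein 6, to 0.288 and Pmp22 from 0.061 to 0.308. In limma 0 probe sets passed under any alternative, while those with an unadjusted p under 0.05, 433 with all arrays, numbered from 271, without casein 18, to 843, with no filter. Signals near or under the filter, such as those of Cldn19, Mag, Ugt8 and Sox10 and the low Myl11 values, are limited by the absence of a background measure.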
